A study of Mus musculus with 32 samples.

Results

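Matrix metalloproteinases (MMPs), the ADAM proteases and their regulators were followed as 10 genes: Mmp12, Mmp14, Mmp2, Adam8, Adam10, Adam17, Timp1, Timp2, Timp3 and Bsg. They were chosen by name, with earlier results of these data known, as the rows of each count table whose Ensembl identifier maps to one of these symbols. All 10 were found among 74021 rows of the LAG-3-sorted table, 74016 rows of the stage table and 74021 rows of the spinal cord table. The study asked how the inhibitory receptor LAG-3 relates to the state of microglia in SOD1G93A mice, which carry a human mutant SOD1 transgene in every cell and model amyotrophic lateral sclerosis.

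The LAG-3-sorted experiment held CD11b+/CD45int microglia of SOD1G93A mice at P140, separated by flow cytometry into LAG-3-low (5 libraries) and LAG-3-high (5 libraries) cells, and microglia of WT mice without the transgene (4 libraries). The stage experiment held microglia of SOD1G93A mice at P120 and at P140, either SOD1G93A/LAG-3+/+ or SOD1G93A/LAG-3-/-, with 3 libraries in each of the 4 groups. The spinal cord experiment held whole lumbar cord of the same 2 genotypes at P140, with 3 libraries each. All groups but WT carry the transgene, LAG-3-/- mice lack Lag3 in every cell from birth (the Lag3tm1Doi allele), and no WT cord or LAG-3-/- mouse without the transgene was analysed here. The age of the WT mice, and whether libraries came from separate or pooled animals, are not given in the sources used here, so p-values measure the spread between these libraries.

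MMPs are zinc-dependent proteases that cut extracellular matrix and cell-surface proteins. ADAMs are membrane-bound relatives that release the outer part of transmembrane proteins from the cell, a process called shedding. ADAM10 and ADAM17 are the proteases known to shed LAG-3 from T cells. TIMPs bind the active site of these enzymes and block it, and TIMP2 also joins MMP14 at the cell surface in the complex that activates pro-MMP2. Bsg encodes basigin (EMMPRIN), a membrane glycoprotein that induces MMPs in neighbouring cells and escorts monocarboxylate transporters to the surface. In microglia, Mmp12, the macrophage elastase, is known as a gene of activated states.

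The 6 proteases share one catalytic motif, in which 3 histidines hold the zinc ion and a glutamate activates water, and the stretch of 33 coding bases that spells it is shown to place the family members side by side. The stretches were read 5′ to 3′ on the coding strand from the GENCODE vM39 coding sequences (GRCm39), and capitals mark the histidine and glutamate codons.
Mmp12: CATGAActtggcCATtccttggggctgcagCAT
Mmp14: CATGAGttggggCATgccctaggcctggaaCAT
Mmp2: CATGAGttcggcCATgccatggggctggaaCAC
Adam8: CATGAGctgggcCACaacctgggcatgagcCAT
Adam10: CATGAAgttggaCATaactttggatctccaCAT
Adam17: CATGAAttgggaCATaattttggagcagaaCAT
These bases lie at chr9:7352914-7352946 (plus strand, exon 5), chr14:54675084-54675116 (plus, exon 5), chr8:93565907-93565939 (plus, exon 8), chr7:139567806-139567838 (minus, exon 11), chr9:70661578-70668867 (plus, split by an intron between exons 9 and 10) and chr12:21386733-21386765 (minus, exon 11). The most alike pairs were Mmp14 and Mmp2, with 27 of 33 bases identical, and Adam10 and Adam17, with 26 of 33. Mmp2 and Adam10 were the least alike, with 18 of 33. The coding sequences of the 3 TIMPs and Bsg held no such motif.

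Adam10 (GRCm39 chr9:70586221-70687511, plus strand) and Adam17 (GRCm39 chr12:21373510-21423672, minus strand) were called together in 2 of the comparisons reported here, and their promoters are shown for that reason. RefSeq promoters of 300 bases, from 250 before to 50 after the annotated start (build GRCm38.p6), were at hand for 8 of the 10 members, and CG dinucleotides are in capitals. Window positions are in that build and do not line up with gene positions in GRCm39.
Adam10: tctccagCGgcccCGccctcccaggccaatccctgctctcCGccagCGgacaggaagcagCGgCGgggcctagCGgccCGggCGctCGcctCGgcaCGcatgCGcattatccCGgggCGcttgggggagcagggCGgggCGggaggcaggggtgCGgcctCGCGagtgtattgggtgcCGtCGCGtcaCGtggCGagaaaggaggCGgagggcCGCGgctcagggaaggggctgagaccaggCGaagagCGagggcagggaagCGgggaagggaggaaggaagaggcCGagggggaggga
Adam17: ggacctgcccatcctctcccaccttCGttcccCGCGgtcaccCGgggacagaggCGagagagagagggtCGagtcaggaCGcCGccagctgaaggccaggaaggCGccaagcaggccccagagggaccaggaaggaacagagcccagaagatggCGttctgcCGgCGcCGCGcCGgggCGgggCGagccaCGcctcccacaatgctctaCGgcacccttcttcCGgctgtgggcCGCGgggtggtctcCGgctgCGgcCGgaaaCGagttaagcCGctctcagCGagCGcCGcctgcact
The Adam10 window (chr9:70678732-70679031, plus strand) was 73.3% GC with 32 CG dinucleotides, and the Adam17 window (chr12:21373583-21373882, minus strand) was 70.0% GC with 30. Over 32851 promoter windows the median was 52.7% GC with 7 CG dinucleotides. The Mmp12 gene (GRCm39 chr9:7344381-7369499, plus strand) had 2 windows, of 38.7% and 40.7% GC with 0 and 3 CG dinucleotides. The second of them (chr9:7347124-7347423) was the only one of the members' windows with a match to the AP-1 motif TGANTCA or to TATAAA on either strand, marked here by capitals.
Mmp12: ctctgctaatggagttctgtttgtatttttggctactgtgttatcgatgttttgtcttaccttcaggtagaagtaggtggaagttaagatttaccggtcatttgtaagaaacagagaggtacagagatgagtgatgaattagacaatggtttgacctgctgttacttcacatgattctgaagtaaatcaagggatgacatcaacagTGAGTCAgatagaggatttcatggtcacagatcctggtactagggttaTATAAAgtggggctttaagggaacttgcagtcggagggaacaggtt
TGANTCA was found in 7.81% of all windows and TATAAA in 13.6%. A match describes these letters only.

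Libraries held 9403475 to 49512632 counts, and levels are given as CPM (a gene's counts per 1000000 counts of its library, scaled by TMM factors), without correction for gene length. Lag3 followed the labels. Its level was 1.07, 6.88, 9.99 and 0.508 CPM in the WT libraries. In the LAG-3-high sort it ran from 146 to 195 CPM, against 34.8 to 57.8 CPM in the LAG-3-low sort. LAG-3-/- microglia held at most 0.462 CPM. LAG-3+/+ microglia held 53.4 to 62.9 CPM at P120 and 24.5 to 28.1 CPM at P140. This change from P120 to P140 was -1.19 ± 0.52 (SE, adjusted p = 0.136) on the log2 scale and was not called. LAG-3-/- cord held 5.50 to 5.72 CPM against 43.4 to 74.5 CPM in LAG-3+/+ cord. The Lag3 reads of LAG-3-/- cord were not followed further. Several groups also differed in how counts depended on transcript length, measured as the slope of a library's log2 CPM deviation on log2 transcript length. The slope was -0.53 to -0.01 in WT libraries. LAG-3-high libraries had slopes of 0.12 to 0.16 and LAG-3-low libraries of 0.03 to 0.12. It was 0.07 to 0.11 at P120 in LAG-3+/+ and 0.06 to 0.11 at P120 in LAG-3-/- microglia. At P140 it was -0.26 to -0.13 in LAG-3+/+ libraries, and -0.11, 0.12 and 0.08 in LAG-3-/- libraries 1, 2 and 3. In cord it was 0.12 to 0.15 in LAG-3+/+ and -0.20 to -0.07 in LAG-3-/-. Where all libraries of a group share a slope, it and the group cannot be told apart. Values under a planned correction for transcript length and GC content therefore stand beside the results. As planned, it moved the median of all genes, in LAG-3-low over WT by -0.74 on the log2 scale, so a second form was added after that was seen, with each library's median offset set to 0 (called centred here). It left the medians within 0.12 of 0. The 10 neutrophil marker genes listed were measured as well, and each had counts in WT and in LAG-3-low libraries. They summed to 5955 to 70492 CPM in WT libraries. The LAG-3-high libraries held 0.141 to 4.86 CPM of them in sum, with Elane at 0 in all 5, and the LAG-3-low libraries 22627 to 65164 CPM. The 9 measured microglial markers summed to 29427 to 37895 CPM in WT and 29278.5 to 32515 CPM in LAG-3-high libraries. In LAG-3-low libraries they were lower, at 18211 to 26574 CPM. At P120 they summed to 29285 to 32192 CPM in LAG-3+/+ and 25079 to 32567 CPM in LAG-3-/- libraries. At P140 the sums were 38871 to 47028 CPM and 27644 to 43025 CPM. The part of either marker sum in the levels of Timp2 and Bsg was not tested.

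In SOD1G93A microglia at P140, Timp2, the TIMP that both inhibits MMPs and takes part in pro-MMP2 activation, was the member that passed the test between the sorts. Timp2 stood at 1792, 1795, 1878, 1500.4 and 1347 CPM in the 5 LAG-3-high libraries. In the LAG-3-low libraries it stood at 628, 547, 398, 158 and 320.4 CPM, and in WT at 564, 323, 401 and 517 CPM. Every LAG-3-high library was above every LAG-3-low and every WT library, and the LAG-3-low and WT ranges overlapped. Over all genes, 8.95% had every LAG-3-high library above every LAG-3-low library, and 12.4% had every LAG-3-high library above every WT library. The log2 fold change of LAG-3-high over LAG-3-low was 2.02 ± 0.30 (SE, adjusted p = 0.00238), and over WT it was 1.88 ± 0.33 (SE, adjusted p = 0.00139). Of the 8 members tested, Timp2 was the 1 called higher in the LAG-3-high sort, and 0 were called lower, at an adjusted p under 0.1 and an absolute log2 fold change above 1. For comparison, 0.818% of the 16508 tested genes went up by that rule and 2.67% went down. Timp2 rose in this comparison also under the correction for length and GC content, with 2.05 (adjusted p = 0.0131), and with the correction centred within each library, with 1.91 (adjusted p = 0.00435). Its rise over WT was lost under the planned correction, with 0.36 (adjusted p = 0.566), and passed when centred, with 1.27 (adjusted p = 0.0232). The Timp2 gene (chr11:118191887-118246566, minus strand) overlaps Cep295nl on the same strand over 10197 bases of gene span, introns included. Whether their transcripts share sequence was not examined. The spans of Mmp12 and Mmp1b share 1261 bases on opposite strands, and those of Adam17 and Iah1 share 341 bases. The microglia library kit does not keep the strand, so reads of any exon sequence shared there could not be told apart by strand.

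**Figure D1:**
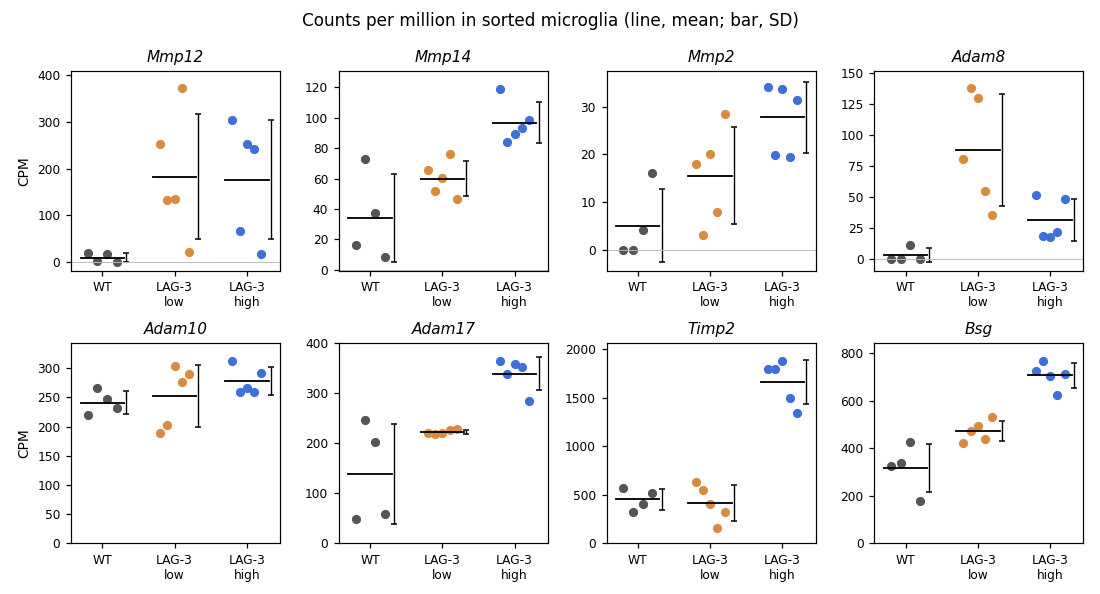
CPM of the 8 members tested in microglia of WT mice and of both LAG-3 sorts, 1 point per library, with the mean as a line and the SD as a bar, with a separate axis in each panel. The 5 LAG-3-high libraries of Timp2 lie between 1347 and 1878 CPM, above all WT and LAG-3-low libraries.

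Bsg was called against WT in the LAG-3-high sort, but not between the sorts. LAG-3-high libraries held 724, 767, 705, 625 and 712 CPM. LAG-3-low libraries held 423, 474, 492, 438 and 531 CPM and WT libraries 325, 337, 427 and 178 CPM. The LAG-3-high sort did not overlap either other group, whereas LAG-3-low and WT overlapped through WT library 3. Of all genes, 8.95% had every LAG-3-high library above every LAG-3-low library, and 12.4% had each of them above every WT library. LAG-3-high over WT gave a log2 fold change of 1.16 ± 0.21 (SE, adjusted p = 0.00158), which was called. For LAG-3-low over WT it was 0.57 ± 0.20 (SE, adjusted p = 0.0646), under the fold minimum, and for LAG-3-high over LAG-3-low it was 0.58 ± 0.19 (SE, adjusted p = 0.143), which missed the threshold. The call against WT was lost on the fold minimum when WT library 4 was left out, with 0.97 (adjusted p = 0.00048). It was also lost under both forms of the length and GC correction, with 0.26 (adjusted p = 0.238) as planned and 0.93 (adjusted p = 0.00497) when centred.

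Mmp12, which cuts elastin, rose in both SOD1G93A sorts over WT, and was not called between the sorts. WT libraries held 20.04, 2.18, 16.7 and 1.33 CPM. LAG-3-low libraries held 252, 133, 134, 372 and 21.5 CPM and LAG-3-high libraries 304, 66.3, 253, 241 and 17.3 CPM. Library 5 was the lowest of each sort, and LAG-3-high library 5 lay within the WT range. On the log2 scale Mmp12 changed over WT by 4.13 ± 1.05 (SE, adjusted p = 0.014) in the LAG-3-high sort and by 4.18 ± 1.06 (SE, adjusted p = 0.0167) in the LAG-3-low sort. Between the sorts the difference was -0.05 ± 0.84 (SE, adjusted p = 0.998). Both rises were also called under the length and GC correction, at 3.55 (adjusted p = 0.0162) in the LAG-3-high sort and 3.44 (adjusted p = 0.0171) in the LAG-3-low sort.

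Adam8, a protease of leukocytes that activates itself by autocatalysis, was nearly absent from WT libraries, at 0, 0, 11.2 and 0 CPM. LAG-3-low libraries held 80.8, 138, 130.1, 54.4 and 34.96 CPM and LAG-3-high libraries 51.04, 18.02, 17.7, 21.4 and 47.9 CPM. All SOD1G93A libraries lay above all WT libraries, and the 2 sorts overlapped. Every LAG-3-high library was above every WT library for 12.4% of all genes, and every LAG-3-low library for 9.78%. Over WT the log2 fold change was 3.46 ± 1.38 (SE, adjusted p = 0.0881) for the LAG-3-high and 4.95 ± 1.49 (SE, adjusted p = 0.0364) for the LAG-3-low sort. With 1 library left out at a time, the LAG-3-high call was lost 8 of 9 times (adjusted p = 0.106 to 0.148). Without WT library 3 all WT libraries were at 0, so that the fitted fold has no upper limit, and both calls held. Both calls were lost without the filter on low counts, with 3.602 (adjusted p = 0.214) for LAG-3-high and 5.09 (adjusted p = 0.124) for LAG-3-low. Between the sorts the log2 fold change was -1.49 ± 1.16 (SE, adjusted p = 0.744). When only those 2 groups were fitted it passed the threshold, with -1.57 (adjusted p = 0.0231). The neutrophil markers given above moved with the sorts. So did the 8 border macrophage and monocyte markers, which summed to 2.96 to 13.97 CPM in LAG-3-high libraries, 241 to 618 CPM in LAG-3-low libraries and 45.6 to 691 CPM in WT. Of these Lyve1, Cd163 and Ly6c2 were at 0 in every LAG-3-high library. In WT libraries, where Adam8 was nearly absent, the neutrophil markers summed to 5955 to 70492 CPM. The part of either marker list in the levels of Adam8, Mmp12 and Mmp14 was not tested.

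Adam17, the TNF-alpha converting enzyme, was steady within each SOD1G93A sort. LAG-3-high libraries held 364, 339, 357, 352 and 284 CPM, and LAG-3-low libraries 219.8, 218, 220.4, 226 and 228 CPM. WT libraries split, at 48.3, 245, 201 and 58.1 CPM, and the 2 low ones, 1 and 4, had the steepest length slopes, -0.39 and -0.53. LAG-3-high over WT gave a log2 fold change of 1.30 ± 0.39 (SE, adjusted p = 0.0302), and without WT libraries 1 and 4, a choice made after seeing the data, it was 0.64 (adjusted p = 0.00587), under the fold minimum. Under the length and GC correction it was 0.66 (adjusted p = 0.0585) as planned, also under the minimum, and 1.19 (adjusted p = 0.0331) when centred. LAG-3-high over LAG-3-low gave 0.61 ± 0.36 (SE, adjusted p = 0.583). LAG-3-low over WT gave 0.69 ± 0.38 (SE, adjusted p = 0.236), and it passed without WT library 2, with 1.12 (adjusted p = 0.0393).

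Adam10 was not called in any comparison of the sorts. LAG-3-high libraries held 312, 259.6, 265, 259.8 and 293 CPM, LAG-3-low libraries 189.6, 203, 305, 276 and 291 CPM and WT libraries 219, 266, 247 and 232 CPM, and all 3 ranges overlapped. The log2 fold changes were 0.14 ± 0.16 (SE, adjusted p = 0.894) between the sorts, 0.20 ± 0.17 (SE, adjusted p = 0.427) for LAG-3-high over WT and 0.07 ± 0.17 (SE, adjusted p = 0.823) for LAG-3-low over WT. The sign of the change turned without TMM factors, to -0.24 between the sorts and -0.10 for LAG-3-high over WT. It turned also under the planned length and GC correction, to -0.63 (adjusted p = 0.0609) for LAG-3-high and -0.89 (adjusted p = 0.0123) for LAG-3-low over WT, but not when this was centred, with 0.14 (adjusted p = 0.615) and 0.02 (adjusted p = 0.952).

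Mmp14, the membrane-anchored MMP that activates pro-MMP2, stood at 119, 84.2, 89.5, 93.03 and 98.7 CPM in LAG-3-high libraries. LAG-3-low libraries held 65.5, 51.6, 60.6, 75.9 and 46.4 CPM and WT libraries 16.6, 73.02, 37.6 and 8.31 CPM, all of them below the LAG-3-high libraries. That was so for 8.95% of all genes against LAG-3-low and for 12.4% against WT. Mmp14 differed from WT by 1.52 ± 0.47 (SE, adjusted p = 0.0336) on the log2 scale in the LAG-3-high sort, which was called. In the LAG-3-low sort the value was 0.83 ± 0.46 (SE, adjusted p = 0.234), and between the sorts it was 0.69 ± 0.43 (SE, adjusted p = 0.615). The call against WT was lost on the fold minimum under the planned length and GC correction, with 0.67 (adjusted p = 0.0978), and when WT libraries 1 and 4 were left out, with 0.83 (adjusted p = 0.0625). Leaving out WT library 2, the highest, brought LAG-3-low over WT past the threshold, with 1.53 (adjusted p = 0.0129). Mmp2, the gelatinase that MMP14 activates, was low throughout, at 34.1, 19.8, 33.7, 19.5 and 31.4 CPM in LAG-3-high libraries, 17.98, 3.03, 20.04, 7.99 and 28.5 CPM in LAG-3-low libraries and 0, 0, 4.12 and 16.1 CPM in WT. Its log2 fold change of LAG-3-high over WT was 2.45 ± 1.29 (SE, adjusted p = 0.19), and it was called when WT library 4 was left out, with 4.31 (adjusted p = 0.0409). Without that library LAG-3-low over WT passed too, with 3.47 (adjusted p = 0.0902).

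Against WT, then, 6 of the 8 members tested were called up in LAG-3-high cells (Mmp12, Mmp14, Adam8, Adam17, Timp2 and Bsg) and 0 down, where 12.1% of all genes went up and 14.9% down. For LAG-3-low cells 2 members were called higher (Mmp12 and Adam8) and 0 lower, where 10.9% and 11% of all genes were. Both counts use the same 4 WT libraries, and members that were chosen with earlier results of these data known. The count for LAG-3-high cells was 1 under the planned length and GC correction, 4 when it was centred, 2 without TMM factors, 3 when only the 2 groups were fitted and 3 without WT libraries 1 and 4. For LAG-3-low cells the planned correction gave 2 members higher and 1 lower. The lower one was Timp2, at -1.69 (adjusted p = 0.00984) against -0.64 (adjusted p = 0.242) when centred. The correction also moved the split of calls over all genes. LAG-3-high over WT gave 2000 genes higher and 2464 lower in the reported fit, 1353 and 4281 under the planned correction, and 1932 and 1822 when centred. LAG-3-low over WT gave 1793 and 1821, 1314 and 4552, and 1672 and 1230. LAG-3-high over LAG-3-low gave 135 and 441, 287 and 447, and 208 and 497. Without TMM factors the split was 1488 and 3234 for LAG-3-high over WT and 35 and 633 for LAG-3-high over LAG-3-low. Timp1, an inhibitor known to be induced in reactive glia, and Timp3, which is bound to the extracellular matrix, did not pass the filter on low counts in sorted microglia. Timp1 was at 0 in 13 of 14 sorted libraries and at 1.14 CPM in LAG-3-high library 4, and Timp3 was at or below 0.207 CPM.

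In microglia by stage, the sheddases Adam10 and Adam17 were lower, and Bsg higher, at P140 than at P120 in LAG-3+/+ mice. Adam10 was at 367, 331 and 374 CPM at P120 and 96.95, 74.2 and 55.4 CPM at P140 in LAG-3+/+ libraries. In LAG-3-/- libraries it was at 477, 313 and 411 CPM at P120 and 112, 303 and 352 CPM at P140. The 3 LAG-3+/+ libraries at P140 were below all the others, and LAG-3-/- library 1 at P140 came next above them. Of all genes, 25.4% had every LAG-3+/+ library at P140 below every LAG-3+/+ library at P120. At P140, 12.2% had every LAG-3-/- library above every LAG-3+/+ library. The log2 fold change from P120 to P140 was -2.24 ± 0.38 (SE, adjusted p = 0.00581) in LAG-3+/+ and -0.65 ± 0.36 (SE, adjusted p = 0.655) in LAG-3-/- mice. At P140, LAG-3-/- over LAG-3+/+ gave 1.76 ± 0.37 (SE, adjusted p = 0.0337). The LAG-3-sorted SOD1G93A libraries, also from P140 but scaled separately, held 190 to 312 CPM of Adam10 and 218 to 364 CPM of Adam17. Both genes were thus higher there than in the LAG-3+/+ libraries of the stage experiment at P140. Bsg was at 423 to 767 CPM in the sorts, below the 883 to 1335 CPM of those stage libraries. The reason for these differences was not tested.

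Adam17 was likewise lower at P140 in LAG-3+/+ mice. It stood at 283, 259 and 275 CPM at P120 and 145, 49.3 and 72.1 CPM at P140 in LAG-3+/+ libraries. LAG-3-/- libraries held 332, 274 and 277 CPM at P120 and 212, 347 and 324 CPM at P140, so that at P140 every LAG-3-/- library was above every LAG-3+/+ library, as was the case for 12.2% of all genes. From P120 to P140 the log2 fold change was -1.62 ± 0.34 (SE, adjusted p = 0.0106) in LAG-3+/+ and 0.00 ± 0.33 (SE, adjusted p = 1) in LAG-3-/- mice, and LAG-3-/- over LAG-3+/+ at P140 was 1.73 ± 0.34 (SE, adjusted p = 0.0309).

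The length slope moved with both genes. The 4 libraries with the lowest Adam10 levels were also those with negative slopes and with the fewest genes detected, 18896 to 20489 against 23459 to 24942 in the other 8. Under the planned length and GC correction the log2 fold change from P120 to P140 in LAG-3+/+ mice was -1.15 (adjusted p = 0.0172) for Adam10 and -0.60 (adjusted p = 0.115) for Adam17. With the correction centred, which was chosen after the planned form was seen to shift all genes, the values were -1.53 (adjusted p = 0.0112) and -0.96 (adjusted p = 0.0299). The genotype difference at P140 became 0.83 (adjusted p = 0.123) for Adam10 and 0.96 (adjusted p = 0.0819) for Adam17 as planned, and 1.13 (adjusted p = 0.0847) and 1.202 (adjusted p = 0.0595) when centred. It was also lost for both genes when LAG-3-/- library 2 or library 3 at P140 was left out. Without library 2 the values were 1.56 (adjusted p = 0.146) and 1.55 (adjusted p = 0.135), and without library 3 they were 1.46 (adjusted p = 0.134) and 1.66 (adjusted p = 0.118). When only the 2 groups at P140 were fitted, neither passed, at an adjusted p of 0.212 for each.

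**Figure D2:**
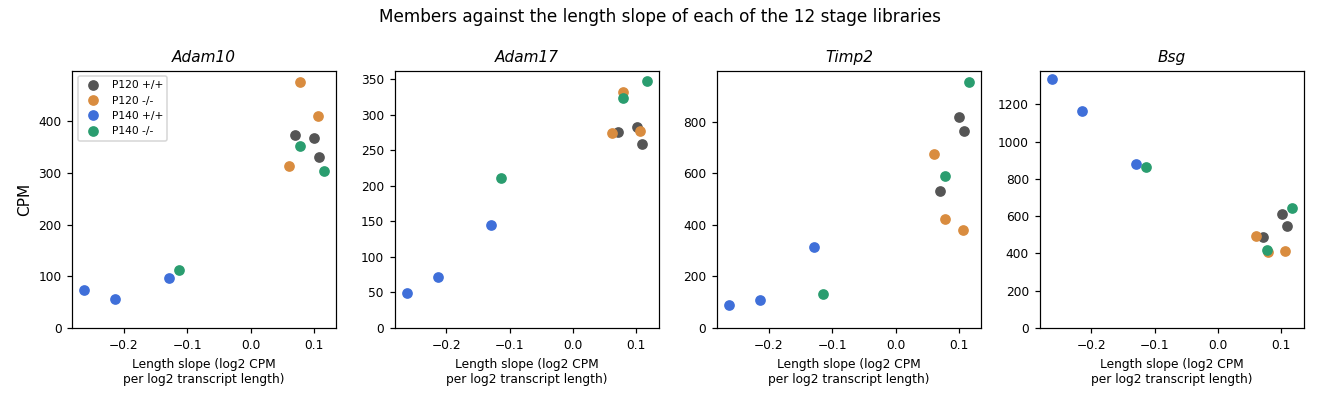
CPM of Adam10, Adam17, Timp2 and Bsg (y axes, each from 0) against the length slope (x axes) in the 12 stage libraries, colored by group. The libraries with negative slopes are the 3 of LAG-3+/+ at P140 and LAG-3-/- library 1 at P140, and they hold the lowest Adam10 levels, 55.4 to 112 CPM.

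Bsg rose from P120 to P140 in LAG-3+/+ mice. It was at 613, 545 and 489 CPM at P120 and 883, 1335 and 1164 CPM at P140 in LAG-3+/+ libraries, and at 408, 492 and 412 CPM and 862, 645 and 419.5 CPM in LAG-3-/- libraries. In LAG-3+/+ mice all P140 libraries lay above all P120 libraries, as for 16.8% of all genes, with a log2 fold change of 1.04 ± 0.25 (SE, adjusted p = 0.0172). At P140, LAG-3-/- libraries lay below LAG-3+/+ libraries, as for 8.92% of all genes, with LAG-3-/- library 1 close to the lowest LAG-3+/+ library. The log2 fold change was -0.81 ± 0.25 (SE, adjusted p = 0.0876). With 1 library left out at a time, that genotype call was lost 4 of 6 times: without LAG-3+/+ library 2 (-0.67, adjusted p = 0.234) or 3 (-0.78, adjusted p = 0.187), and without LAG-3-/- library 2 (-0.85, adjusted p = 0.237) or 3 (-0.58, adjusted p = 0.245). It held under the planned length and GC correction (-0.95, adjusted p = 0.0943) and was lost when this was centred (-0.72, adjusted p = 0.113), with sex as a factor (-0.81, adjusted p = 0.12) and with only the 2 groups fitted (-0.81, adjusted p = 0.285). The rise in LAG-3+/+ mice passed under both forms of the correction, with 1.298 (adjusted p = 0.0101) and 0.92 (adjusted p = 0.0212).

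Timp2 was at 818, 763 and 531 CPM at P120 and 312, 87.1 and 108 CPM at P140 in LAG-3+/+ libraries. In LAG-3-/- libraries it was at 421, 676 and 379 CPM and 131, 954 and 589.5 CPM, so that library 1 at P140 lay with LAG-3+/+ and the other two did not. The log2 fold change from P120 to P140 in LAG-3+/+ mice was -2.06 ± 0.65 (SE, adjusted p = 0.047), a fall that was called. This call was lost 4 of 6 times with 1 library left out, at adjusted p of 0.116 and 0.111 without P120 library 1 or 2 and 0.143 and 0.145 without P140 library 2 or 3. It was lost also under the planned length and GC correction (-1.25, adjusted p = 0.139) but not when centred (-1.599, adjusted p = 0.0945). LAG-3-/- over LAG-3+/+ at P140 was 1.72 ± 0.64 (SE, adjusted p = 0.136), which passed when LAG-3-/- library 1 or LAG-3+/+ library 1 was left out, with 2.19 (adjusted p = 0.0188) and 2.52 (adjusted p = 0.0552).

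Mmp12 varied widely within groups. It was at 58.5, 18.7 and 226 CPM at P120 and 130.04, 1305 and 281 CPM at P140 in LAG-3+/+ libraries, and at 72.6, 331 and 401 CPM and 213, 64.2 and 179 CPM in LAG-3-/- libraries. All 4 groups overlapped, and library 2 of LAG-3+/+ at P140 was the highest of the 12. The log2 fold changes were 2.50 ± 1.04 (SE, adjusted p = 0.116) from P120 to P140 in LAG-3+/+ mice and -1.91 ± 1.02 (SE, adjusted p = 0.274) for LAG-3-/- over LAG-3+/+ at P140. The former passed the threshold under several other settings, among them DESeq2 (2.66, adjusted p = 0.0391) and the centred correction (3.002, adjusted p = 0.096). It passed also without P120 library 3 (3.88, adjusted p = 0.0636) or P140 library 1 (2.97, adjusted p = 0.0748). Mmp14, at 20.5 to 82.2 CPM, Mmp2, at 3.07 to 44.6 CPM, and Adam8, at 15.1 to 81.0 CPM, were not called in any stage comparison with all libraries. For Mmp14 the LAG-3+/+ libraries at P140 held 64.5, 20.5 and 25.4 CPM, and without the first of them its change from P120 was -1.35 (adjusted p = 0.0169) and the genotype difference at P140 1.03 (adjusted p = 0.0775), both past the threshold. Timp1 was at 0 in all 12 libraries, which allows at most 3 counts in each, and Timp3 was at 0 to 0.103 CPM in 11 of them and at 3.23 CPM in LAG-3-/- library 1 at P120.

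**Figure D3:**
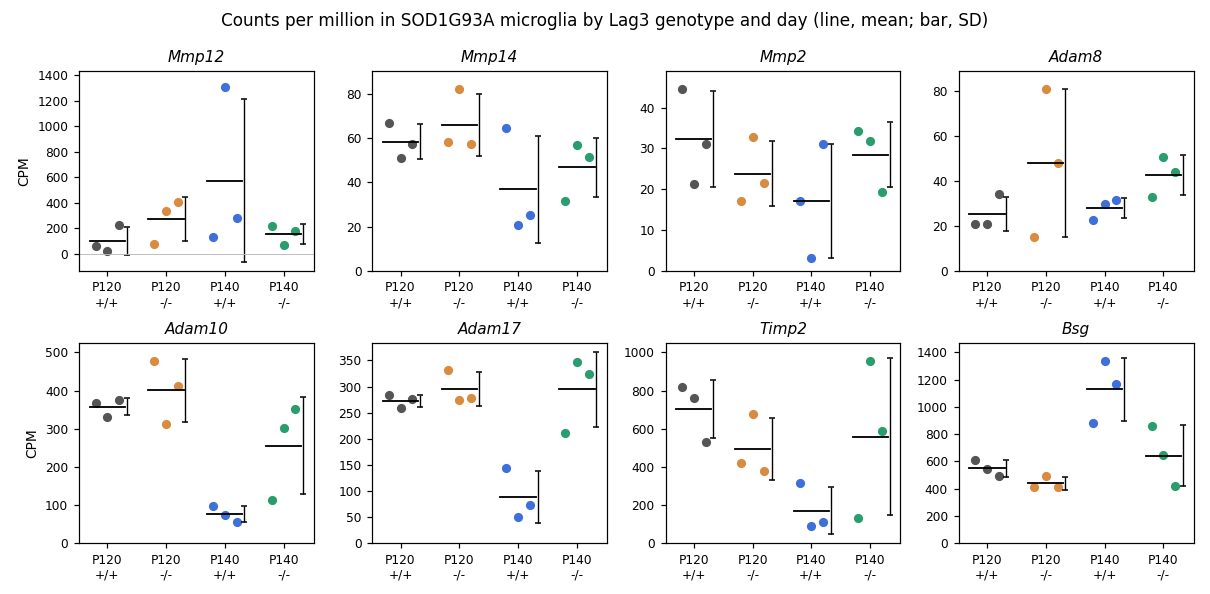
CPM of the 8 members tested in SOD1G93A microglia by Lag3 genotype and day, 1 point per library, with the mean as a line and the SD as a bar. Adam10 and Adam17 are lowest in LAG-3+/+ libraries at P140 (55.4 to 97.0 and 49.3 to 145 CPM), where Bsg is highest (883 to 1335 CPM).

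By comparison, 3 members were called lower (Adam10, Adam17 and Timp2) and 1 higher (Bsg) from P120 to P140 in LAG-3+/+ mice, where 15.5% of 18669 genes were called lower and 11.9% higher at an adjusted p under 0.1. In LAG-3-/- mice 0 members were called, where 0% of genes were called in each direction. DESeq2 called 449 genes there, and 1 member had an unadjusted p under 0.05 in edgeR (Bsg, 0.55), ranking 1580 by p among the 18669 genes. LAG-3-/- against LAG-3+/+ at P140 called 2 members higher (Adam10 and Adam17) and 1 lower (Bsg), against 7.22% and 3% of all genes. At P120, 0 members were called and 0 had an unadjusted p under 0.05, where 0% of genes were called higher and 0.0107% lower. The members' log2 fold changes there ran from -0.52 (Timp2) to 1.41 (Mmp12). The test of whether the genotype difference changed between the stages called 0 members, where 0.161% and 0.0107% of genes were called. In that test 4 members had an unadjusted p under 0.05: Adam10 at 1.60 ± 0.51 (SE, adjusted p = 0.235), Adam17 at 1.62 ± 0.47 (SE, adjusted p = 0.218), Timp2 at 2.24 ± 0.89 (SE, adjusted p = 0.312) and Mmp12 at -3.32 ± 1.43 (SE, adjusted p = 0.34). DESeq2 called 2 of them, Adam10 (1.48, adjusted p = 0.0807) and Adam17 (1.52, adjusted p = 0.0384), and edgeR without LAG-3-/- library 1 at P140 called 3, Adam10 (1.96, adjusted p = 0.0121), Adam17 (1.81, adjusted p = 0.0616) and Timp2 (2.71, adjusted p = 0.0559). Without LAG-3+/+ library 1 at P140 it called Adam17 (2.17, adjusted p = 0.0362). By unadjusted p in the reported fit, Adam17 ranked 479, Adam10 758, Timp2 1691 and Mmp12 2187 among the 18669 genes. Of all genes, DESeq2 called 909 higher and 392 lower in this test, and edgeR with 1 library left out called 0 to 1713. The 2 stage comparisons and the 2 genotype comparisons share groups, so their values are not independent. The split of calls over all genes again moved with the length and GC correction. From P120 to P140 in LAG-3+/+ mice it was 2219 higher and 2899 lower as reported, 3525 and 1160 under the planned correction and 2235 and 1604 when centred. For genotype at P140 it was 1347 and 561, 379 and 793, and 487 and 413. Without TMM factors the splits were 971 and 4120 for stage and 2048 and 243 for genotype, and for genotype DESeq2 gave 2370 and 1911 and edgeR with RLE size factors 1275 and 837.

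**Figure D4:**
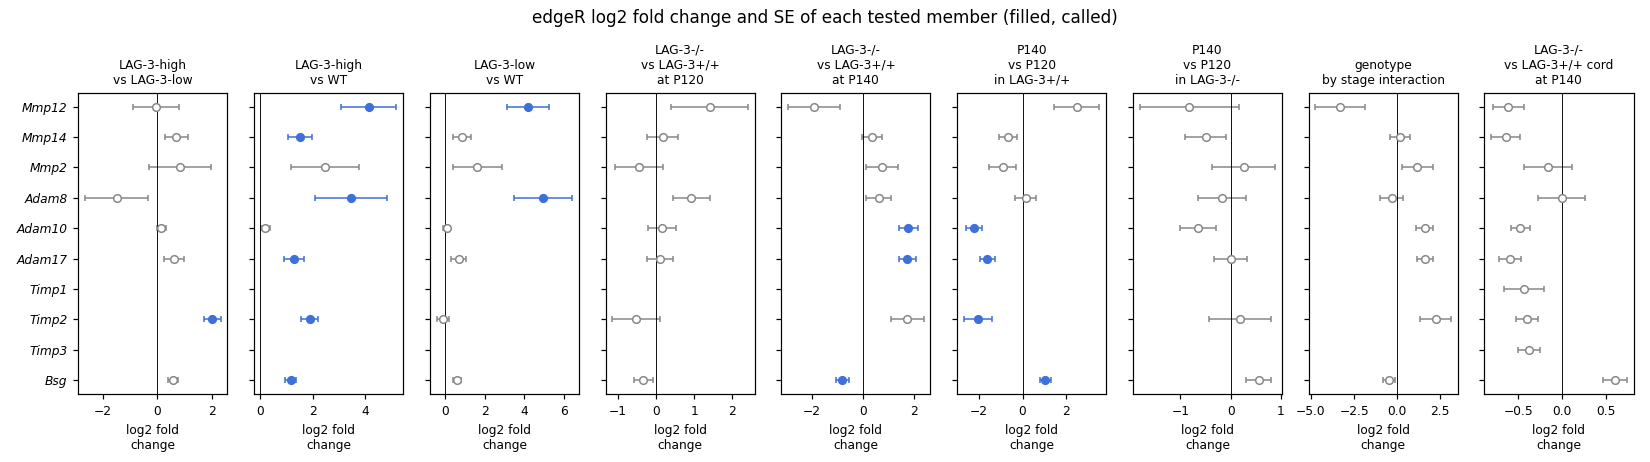
edgeR log2 fold change (x axes, a separate scale in each panel) of every member tested in the 9 comparisons, with SE as bars and filled points for called members. Filled points number 1, 6 and 2 in the 3 LAG-3-sorted comparisons, 3 for genotype at P140 and 4 for stage in LAG-3+/+ mice, and 0 in the other panels.

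In whole spinal cord at P140 most members were slightly lower in LAG-3-/- than in LAG-3+/+ mice, and Bsg was higher. None of the 10 members tested passed the fold minimum, where 4.37% of 17702 genes were called higher and 3.15% lower with it. At an adjusted p under 0.1 alone, 6 members were lower (Mmp12, Mmp14, Adam10, Adam17, Timp2 and Timp3) and 1 higher (Bsg), against 23.9% of all genes lower and 23.1% higher. In bulk cord, fewer cells of a type and less RNA per cell cannot be told apart.

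Among the proteases, Adam10 was at 122, 120.1 and 138 CPM in LAG-3+/+ and 90.4, 97.4 and 85.3 CPM in LAG-3-/- cord, a log2 fold change of -0.48 ± 0.11 (SE, adjusted p = 0.00479). Adam17 was at 46.9, 39.6 and 47.3 CPM and 33.6, 26.2 and 28.9 CPM, a change of -0.60 ± 0.12 (SE, adjusted p = 0.00321). Mmp14 was at 45.8, 45.03 and 48.5 CPM and 33.3, 21.1 and 34.8 CPM, a change of -0.64 ± 0.17 (SE, adjusted p = 0.0116). The genotypes did not overlap for any of these 3 genes, which was also so for 26.1% of all genes in this direction and 25.5% in the other. Mmp12 was at 10.96, 12.3 and 13.8 CPM and 9.496, 6.23 and 8.56 CPM, a change of -0.62 ± 0.18 (SE, adjusted p = 0.0176). The microglial markers summed to 1435 to 1858 CPM in LAG-3+/+ and 1112 to 1605 CPM in LAG-3-/- cord, and their part in the Mmp12 level was not tested. Mmp2 and Adam8 gave -0.16 ± 0.27 (SE, adjusted p = 0.673) and -0.01 ± 0.26 (SE, adjusted p = 0.982).

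Of the inhibitors, all 3 TIMPs were tested in cord. Timp1 and Timp3, near 0 in microglia, were both measured there. Timp2 was at 655, 693 and 691 CPM in LAG-3+/+ and 466, 517 and 559 CPM in LAG-3-/- cord, a log2 fold change of -0.40 ± 0.12 (SE, adjusted p = 0.0229). Timp3 was at 211, 196 and 207 CPM and 146, 186 and 139.7 CPM, a change of -0.38 ± 0.13 (SE, adjusted p = 0.0357). Timp1 was at 21.2, 16.6 and 21.3 CPM and 20.8, 10.9 and 12.3 CPM, with LAG-3-/- library 1 within the LAG-3+/+ range and a change of -0.44 ± 0.23 (SE, adjusted p = 0.165). Timp1 lies wholly within Syn1, and Timp3 within Syn3, on the opposite strand, and the cord library kit keeps the strand of the RNA. Bsg was at 336, 348 and 361 CPM and 581, 563 and 438 CPM, without overlap, a change of 0.60 ± 0.13 (SE, adjusted p = 0.00514).

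The length slope differed between all cord libraries of the 2 genotypes, and so did the share of mitochondrial counts, 4.60% to 6.78% in LAG-3+/+ and 7.99% to 14.8% in LAG-3-/- libraries. Under the planned length and GC correction, Bsg came to 0.15 (adjusted p = 0.444), Mmp14 to -0.83 (adjusted p = 0.00884) and Timp1 to -0.92 (adjusted p = 0.0143). With the correction centred, Bsg was at 0.17 (adjusted p = 0.359), Adam10 at -0.15 (adjusted p = 0.278), Adam17 at -0.31 (adjusted p = 0.105), Mmp12 at -0.41 (adjusted p = 0.139), Timp3 at -0.08 (adjusted p = 0.692), Timp2 at -0.37 (adjusted p = 0.0364), Timp1 at -0.90 (adjusted p = 0.0139) and Mmp14 at -0.81 (adjusted p = 0.00782). Under it the changes of Timp2 and Mmp14 still passed an adjusted p of 0.1, that of Timp1 came to pass it, and those of Bsg, Adam10, Adam17, Mmp12 and Timp3 did not. Over all genes, 773 were called higher and 558 lower as reported, 333 and 469 under the planned correction, 358 and 453 when centred and 485 and 830 without TMM factors. Marker sums of other cell types differed too. Astrocyte markers summed to 13439 to 15218 CPM in LAG-3+/+ and 8031 to 12386 CPM in LAG-3-/- cord, and oligodendrocyte markers to 16855 to 18402 CPM and 23830 to 33266 CPM. Their part in the members' changes was not tested.

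**Figure D5:**
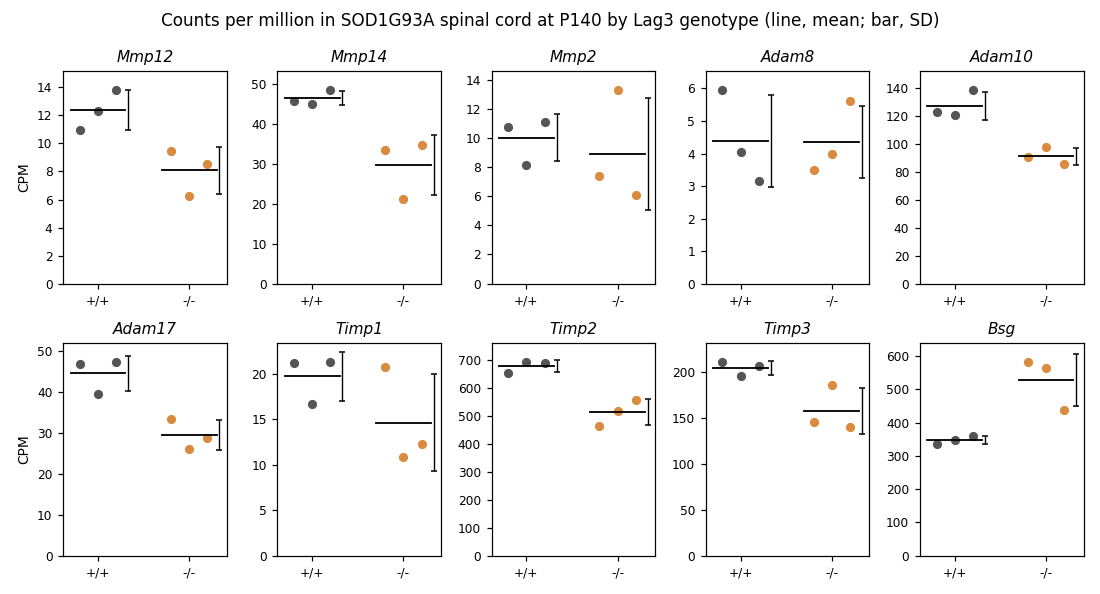
CPM of the 10 members in SOD1G93A spinal cord at P140 by Lag3 genotype, 1 point per library, with the mean as a line and the SD as a bar. Bsg is higher in all 3 LAG-3-/- libraries (438 to 581 against 336 to 361 CPM), and Adam10, Adam17, Mmp12, Mmp14, Timp2 and Timp3 are lower in all 3, as are 26.1% of all genes, with 25.5% higher in all 3.

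Levels of different members were compared per kilobase of canonical transcript. Bsg led in WT, LAG-3-low and all 4 stage groups and in cord, and Timp2 in LAG-3-high cells. In LAG-3-high cells Timp2 was at 444 ± 60.6 and Bsg at 391 ± 28.4 CPM per kb (SD, n = 5), whose ranges of mean and SD overlap. Adam17 (75.8 ± 7.18) and Adam10 (59.8 ± 5.05) came next, then Mmp12 (48.9 ± 35.02), whose spread covered its neighbours, and Mmp14 (34.8 ± 4.83). Adam8 (10.02 ± 5.39) and Mmp2 (8.95 ± 2.403) did not differ beyond their spread. In LAG-3+/+ cord the order was Bsg (193 ± 6.84), Timp2 (181 ± 5.73), Timp3 (43.3 ± 1.64), Adam10 (27.3 ± 2.12) and Timp1 (21.03 ± 2.83), with n = 3. In the sorted libraries the gene with the most similar profile of log2 CPM was Fuca1 for Timp2 (Pearson r = 0.942 over 14 libraries) and Glmp for Bsg (0.985). Mgrn1 was the nearest to Adam17 both there (0.982) and in the 12 stage libraries (0.986), where Abcc5 was the nearest to Adam10 (0.993). These are descriptions over libraries that share group, depth and length slope.

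Other genes of the same systems were counted by list, in lists drawn up with earlier results of these data known. Of all genes, 0.818% were called higher and 2.67% lower between the sorts. In LAG-3-high cells over WT these shares were 12.1% and 14.9%. Of 20 other MMP genes, 7 were tested in the sort, and 2 were called lower in the LAG-3-high sort, Mmp8 and Mmp9, the neutrophil collagenase and gelatinase B. The median log2 fold change of the 7 was -1.53, against -0.02 over all genes, and stays the same with Mmp9 at the lower bound its counts allow. Mmp9 was at 0 in the 5 LAG-3-high libraries, where 3 counts amount to 0.169 to 0.213 CPM, and at 341 ± 230.1 CPM in LAG-3-low and 56.7 ± 88.97 CPM in WT libraries. Mmp8 was at 3.62 ± 2.14 CPM in LAG-3-high and 509.8 ± 401 CPM in LAG-3-low libraries. Between the sorts the neutrophil marker sums moved the same way, and their part was not tested. Mmp8 was also higher in LAG-3-low cells than in WT, at 8.07 ± 1.33 (SE, adjusted p = 0.00162). The neutrophil marker sums of LAG-3-low and WT libraries overlapped. Among 11 other ADAM genes, 6 were tested and 1 was lower, Adam19, at 0 in LAG-3-high and 6.99 ± 4.22 CPM in LAG-3-low libraries. Against WT, LAG-3-high cells had 2 of the 6 higher, Adam15 (1.22 ± 0.25 SE, adjusted p = 0.00416) and Adam9 (1.66 ± 0.48 SE, adjusted p = 0.0252), and 0 lower. Of 9 cofactors of ADAM10 and ADAM17, the iRhom, FRMD8 and TspanC8 genes, 7 were tested. None was called between the sorts, where 0 of them had an unadjusted p under 0.05, while 3 were higher in LAG-3-high cells than in WT, among them Rhbdf2 (1.64 ± 0.34 SE, adjusted p = 0.00429), which carries ADAM17 to the surface. Rhbdf2 was also called higher in LAG-3-low cells than in WT (1.15 ± 0.33 SE, adjusted p = 0.0313).

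Of 15 known shedding substrates, 15 were tested in the sort, of which the LAG-3-high sort had 2 higher. These were Lag3 itself, on whose protein the cells were sorted, and Trem2 (1.17 ± 0.18 SE, adjusted p = 0.00293). The median was 0.14 against -0.02 over all genes, of which 0.818% were called higher. Of 8 genes of basigin's partners and relatives, 8 were tested, and 1 was called between the sorts, Emb, lower at 0.2797 ± 0.124 CPM against 57.5 ± 25.7 CPM. Slc16a3, the lactate exporter that basigin escorts, was higher than in WT in both LAG-3-high (2.84 ± 0.44 SE, adjusted p = 0.000624) and LAG-3-low cells (3.03 ± 0.45 SE, adjusted p = 0.000768). Among 11 genes of the plasminogen and proprotein convertase systems, 6 were tested, and 3 were higher and 1 lower in LAG-3-high cells than in WT, with Plau at 4.21 ± 0.81 (SE, adjusted p = 0.00283). Plau was also called higher in LAG-3-low cells than in WT, at 3.35 ± 0.78 (SE, adjusted p = 0.0110). Of 4 further inhibitors (Timp4, Reck, A2m and Tfpi2) 1 was tested in microglia and 0 were called.

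Of 6 other ADAM genes tested in the stage table, Adam9 (2.05 ± 0.41 SE, adjusted p = 0.0309) and Adam15 (1.17 ± 0.37 SE, adjusted p = 0.0914) were higher in LAG-3-/- than in LAG-3+/+ microglia at P140, and both were lower at P140 than at P120 in LAG-3+/+ mice, at -2.21 ± 0.41 (SE, adjusted p = 0.00723) and -1.45 ± 0.37 (SE, adjusted p = 0.0211). Of 14 shedding substrates tested, 5 were higher and 1 lower in LAG-3-/- microglia at P140, with Csf1r at 1.54 ± 0.28 (SE, adjusted p = 0.0282) and Mertk at 1.71 ± 0.32 (SE, adjusted p = 0.0293), and the lower one was the deleted Lag3. In that comparison 7.22% of all genes were higher and 3% lower. From P120 to P140 in LAG-3+/+ mice 6 of the 14 were lower and 2 higher, where 15.5% of all genes were lower and 11.9% higher. Of 7 genes of the plasminogen and convertase systems tested, Plaur, the urokinase receptor, was lower in LAG-3-/- at P140 (-1.28 ± 0.40 SE, adjusted p = 0.0885) and rose from P120 in LAG-3+/+ mice (2.02 ± 0.41 SE, adjusted p = 0.00918). These counts rest on the same LAG-3+/+ libraries at P140 as those of the members. In cord, 18 of 19 ADAMTS genes were tested and 2 were lower in LAG-3-/- mice, the proteoglycanase gene Adamts1 (-1.14 ± 0.16 SE, adjusted p = 0.00063) and Adamts3, which processes procollagen (-1.99 ± 0.36 SE, adjusted p = 0.00247), with a list median of -0.19 against 0.00. None of the other MMPs (9 tested), other ADAMs (8), inhibitors (3) or cofactors (8) was called in cord with the fold minimum, where 3, 4, 2 and 3 of them had an unadjusted p under 0.05. Of all genes in cord, 4.37% were called higher and 3.15% lower with the fold minimum. At an adjusted p under 0.1 alone, 23.1% of all genes were higher and 23.9% lower.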

How the data were processed

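RNA-seq was run on 26 libraries of CD11b+/CD45int microglia sorted from lumbar spinal cord (SMART-seq kit, full-length, not strand-specific) and 6 libraries of whole cord (NEBNext Ultra II Directional kit). The authors deposited 3 tables of estimated counts per gene, made by trimming with Trim Galore 0.6.7, quantification with Salmon 1.9.0 on GRCm39 and summing to genes with tximport in R 4.2.1, with the annotation release not given in the sources used here. The deposited values were used as not normalized, since their totals differ between libraries.

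The estimated counts were rounded to whole numbers. Symbols and positions came from GENCODE vM39 (GRCm39), which lacked 71, 66 and 71 identifiers of the sorted, stage and cord tables (0.0479%, 0.0514% and 0.0145% of counts). Each table was filtered (edgeR filterByExpr, minimum count 10, minimum total 15), scaled by TMM and fitted with edgeR 4.0.16 in R 4.3.3 (robust quasi-likelihood, 1 model per table over all its groups), with p-values adjusted by Benjamini-Hochberg over all genes tested. Every p in the text is from this test unless another tool is named. Calls needed an adjusted p under 0.1 and, in the sorted and cord tables, an absolute log2 fold change above 1. CPM are after TMM, and totals per library limit the precision of levels near 0. The code was tested on simulated data.

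Alternatives were other size factors, no TMM, other filters, DESeq2 1.42.0, the replicate number as a block, sex as a factor, transcript length and GC content as offsets (splines with 4 degrees of freedom), fits of only the groups compared, and each library left out. The centred form of the length and GC offsets, and leaving out WT libraries 1 and 4, were added after seeing the data. Named genes were all 10 members in every comparison, up to 4 called genes per list and comparison with the smallest adjusted p, Lag3 as a label check, and for each member the gene with the highest Pearson r of log2 CPM among genes of at least 10 CPM. The members and lists were chosen with earlier results of these data known. A gene of the shedding substrate list is not reported here.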

Additional observations from a re-analysis of the deposited data

Results flagged for a closer look

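Among 25 groups of 4 or 5 libraries in which the members' levels were checked for a library far from the rest, 2 were found. The rule used the gap to the next library over the range. With 1 library above 0 and the rest at 0 this is 1 whatever the level, so both were bound to be found. The chance rate of about 1 in 20 is per group and does not hold for levels tied at 0. Adam8 was at 11.2 CPM in WT library 3 and at 0 in the other WT libraries. Timp1 was at 1.14 CPM in LAG-3-high library 4 and at 0 in the other LAG-3-high libraries.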

How the results depend on the processing

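Of 1310 refitted values of single members, 1190 kept their direction and their side of the threshold, 52 lost and 25 gained a call, and 43 changed sign. Most of these values were not called in the reported fit and so could not lose a call. Without TMM factors the sign changed for Adam10 between the sorts (-0.24) and over WT in LAG-3-high cells (-0.10), for Adam8 from P120 to P140 in LAG-3+/+ mice (-0.37), and for Mmp2 (-0.035), Adam17 (-0.25) and Timp2 (-0.017) in LAG-3-/- mice. Under the planned length and GC correction it changed for Mmp12 between the sorts (0.11), Adam10 in LAG-3-high cells over WT (-0.63), Mmp14 (-0.058), Mmp2 (-0.34), Adam10 (-0.89), Adam17 (-0.066) and Bsg (-0.41) in LAG-3-low cells over WT, and Mmp14 in the interaction (-0.28). Timp2 in LAG-3-low cells over WT came to 0.021 without the filter and 0.27 without WT libraries 1 and 4. Adam17 from P120 to P140 in LAG-3-/- mice, at 0.00 as reported, came to -0.0107 without the filter, -0.0105 with only those groups, -0.0038 with a mean of at least 10 counts and -0.00039 with sex as a factor.

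With 1 library left out, signs changed within these ranges: Adam10 in LAG-3-low over WT -0.0087 to 0.15, Timp2 in LAG-3-low over WT -0.35 to 0.067, Mmp12 between the sorts -0.34 to 0.38, Mmp14 for genotype at P120 -0.012 to 0.28, Adam17 (-0.14 to 0.19), Adam8 (-0.60 to 0.43) and Timp2 (-0.46 to 0.65) from P120 to P140 in LAG-3-/- mice, Adam8 (-0.74 to 0.29) and Mmp14 (-0.12 to 0.86) in the interaction, and Adam8 (-0.25 to 0.27) and Mmp2 (-0.58 to 0.031) in cord. Counts of called members ran from 1 to 1 between the sorts, 5 to 6 in LAG-3-high and 2 to 4 in LAG-3-low cells over WT, 0 to 5 for genotype at P140, 3 to 6 for stage in LAG-3+/+ mice and 0 to 3 in the interaction, and were 0 elsewhere. Counts of called genes ran from 370 to 538 between the sorts, 3612 to 6082 and 2852 to 5775 over WT, 1 to 3 and 95 to 4140 for genotype at P120 and P140, 3218 to 5255 and 0 to 4 for stage in LAG-3+/+ and LAG-3-/- mice, 0 to 1713 in the interaction and 1215 to 1808 in cord.

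Same-numbered libraries had a mean r of 0.014 in the sorted, -0.0032 in the stage and 0.00099 in the cord table. The sorted mean includes pairs with WT. The 5 same-numbered LAG-3-low and LAG-3-high pairs had r of -0.0013 to 0.067. Pairs 2 and 4, at 0.067 each, had the highest r between the sorts, and the highest with different numbers was 0.035. Whether same-numbered sorts came from one mouse is not given. The reported fit ignores any such pairing. The block was kept as an alternative, under which Timp2 was also called between the sorts. With the replicate number as a block, Bsg for genotype at P140 was lost (-0.84, adjusted p = 0.12, and -0.81, adjusted p = 0.12, with sex as a factor), Adam8 in cord came to 0.014, and genes called numbered 2257 in LAG-3-low cells over WT (3614 without it), 1 for genotype at P120 (2), 814 at P140 (1908) and 0 in the interaction (32). Members called in LAG-3-high cells over WT numbered 6 as reported, 2 without TMM, 1 under the planned length and GC correction, 3 with only the 2 groups and 3 without WT libraries 1 and 4. In LAG-3-low cells over WT they numbered 2, 3 under the planned correction, and 1 without the filter or with only the 2 groups. Between the sorts they numbered 1, and 2 with only the 2 groups. For genotype at P140 they numbered 3, and 0 with only the 2 groups, and in the interaction 0, and 2 with DESeq2. DESeq2 called 988 genes between the sorts (576 in edgeR), 134 for genotype at P120, 4281 at P140, 449 for stage in LAG-3-/- mice (0 in edgeR) and 1301 in the interaction. Only the 2 groups gave 1450 genes between the sorts, 2663 (of 4464) and 1721 over WT, 31 for genotype at P120 and 0 at P140. The planned correction gave 5866 in LAG-3-low cells over WT, 1172 for genotype at P140, 6 in the interaction and 802 in cord (1331 as reported), and the centred one 4 for genotype at P120, 900 at P140, 10 in the interaction and 811 in cord. Leaving out WT libraries 1 and 4 gave 2399 in LAG-3-low cells over WT. For genotype at P120, no TMM gave 4, no filter 7 and sex as a factor 1, and in the interaction RLE factors gave 14, no filter 179 and sex 0. The cause of these differences was not tested.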

Other observations

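Further lists held values that the members' comparisons did not use. In the stage table the neutrophil markers summed to 1662 to 2516 CPM in LAG-3+/+ and at most 1.02 CPM in LAG-3-/- libraries at P120, and at P140 to 3445, 620 and 0.269 CPM in LAG-3+/+ and 1.03, 839 and 4503 CPM in LAG-3-/- libraries. A2m, a broad protease inhibitor, stood at 556 ± 106 CPM in LAG-3+/+ and 299 ± 90.8 CPM in LAG-3-/- cord (SD, n = 3), and Timp4 at 69.4 ± 5.65 and 98.5 ± 19.97 CPM.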
